A study of Mus musculus and Homo sapiens with 22 samples.

Results

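The mRNAs of 7 mouse nuclear transport receptors were examined for binding by Lin28A, an RNA-binding protein of embryonic stem cells. They were chosen by name: the importins Kpnb1, Ipo5, Ipo7 and Tnpo1, the importin adaptor Kpna2, and the exportins Xpo1 and Cse1l. They are 7 of the 49997 genes in the RefSeq table used. A site was given to a gene when it lay within the gene's bounds on the gene's strand. This gave 90 of the 11285 sites listed for Mettl3 KO cells and 90 of the 10990 sites listed for Mettl3 WT cells.

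Importins bind proteins in the cytoplasm and carry them through nuclear pores, and the small GTPase Ran, loaded with GTP in the nucleus, makes them let go. Exportins work the other way round: they bind their cargo together with Ran-GTP in the nucleus and release it in the cytoplasm. Lin28A blocks the maturation of let-7 microRNAs and also binds many mRNAs, and Mettl3 is the methyltransferase that places N6-methyladenosine on mRNA.

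The wider study also probed RNA structure in HEK293 and mES cell fractions. Those files identify transcripts only by Ensembl transcript number and were not used here. The lists came from irCLIP, in which living V6.5 mouse embryonic stem (mES) cells were irradiated with UV-C and the protein was pulled down with an antibody to Lin28A. The groups were Mettl3 KO cells and Mettl3 WT cells of the V6.5 line, with 1 sample each, grown in ES medium with LIF, and the labels used here do not say whether the KO line was 1 clone. The anti-GFP controls were not analysed here.

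With 1 sample a genotype, no test between genotypes could be made, and no replicate error is given. Intervals are exact 95% intervals that cover counting error only. They treat sites as independent, although the sites of a gene share 1 RNA and most places were found in both lists. The read depth behind the lists is unknown. Each site carried a score and a p-value from the authors. The lowest score listed was 12 in the KO list and 13 in the WT list, and the median scores were 19 and 20. Scores are therefore described within a list and not compared between lists. RNA levels were not measured by these lists, so more sites and more RNA cannot be told apart. Of 10 mES marker genes, 9 had a KO site and all 10 had a WT site. Mettl3 had 0 sites in each list, which leaves the genotype labels unchecked.

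Of the 7 genes, 6 held sites in both genotypes, and Kpna2 held none in either. Kpnb1, the importin beta subunit that carries cargo with an importin alpha adaptor, had 25 KO and 20 WT sites. Ipo5, an import receptor for ribosomal proteins and histones, had 12 KO and 21 WT sites. Xpo1, the exportin for leucine-rich export signals also called CRM1, had 22 KO and 18 WT sites. The KO list was the longer for Kpnb1 and Xpo1, and the WT list for Ipo5. Ipo7, which imports ribosomal proteins and, with importin beta, histone H1, had 15 KO and 14 WT sites. Tnpo1, the transportin that imports hnRNP proteins, had 6 KO and 8 WT sites. Cse1l, the exportin that returns importin alpha to the cytoplasm, had 10 KO and 9 WT sites. These last 3 genes differed by no more than 2 sites between the lists.

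**Figure D1:**
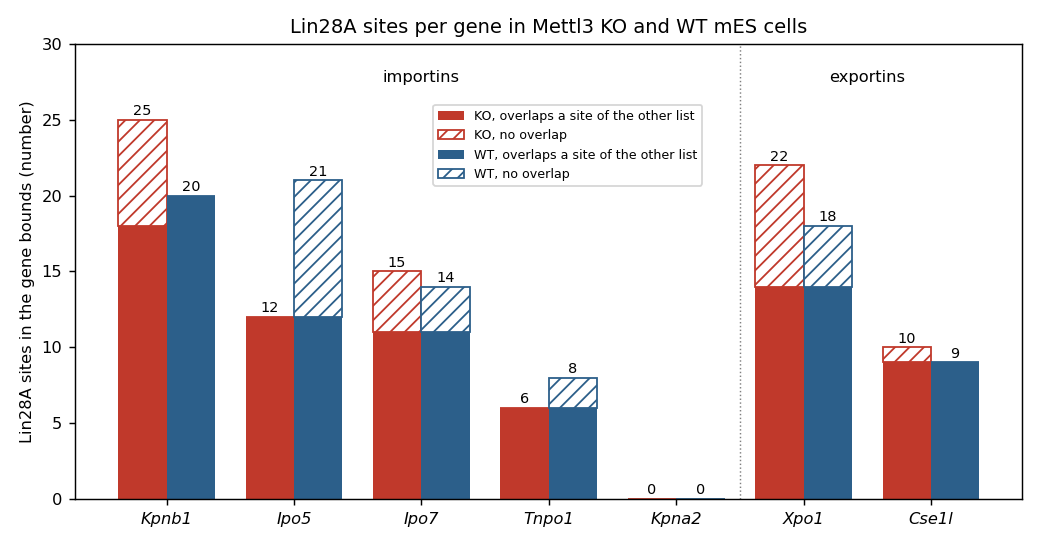
Number of Lin28A sites within the bounds of each gene in the KO list (red, left bar) and the WT list (blue, right bar), with filled parts for sites that overlap a site of the other list and hatched parts for those that do not. The overlapping part is as tall in both lists for every gene but Kpnb1, where 18 KO sites and 20 WT sites overlapped, and the hatched parts of Ipo5 and Tnpo1 are in the WT list only.

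The share of a gene's sites that came from the KO list was set against the share over all sites, 50.7%. It was 36.4% (20.4 to 54.9) for Ipo5, 42.9% (17.7 to 71.1) for Tnpo1 and 51.7% (32.5 to 70.6) for Ipo7. It was 52.6% (28.9 to 75.6) for Cse1l, 55.0% (38.5 to 70.7) for Xpo1 and 55.6% (40.0 to 70.4) for Kpnb1. All 6 intervals included the share over all sites, so no difference from it was detectable beyond counting error.

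A ratio of KO to WT sites of at least 1.5 in either direction was used to mark large differences, among genes whose KO and WT sites came to at least 10. Ipo5, with a ratio of 0.571, was the 1 gene of 6 past that mark on the side lower in KO, where 15.8% of 386 protein-coding genes lay. None of the 6 was past it on the side higher in KO, where 11.1% of the 386 genes lay. The members' share past the mark was thus near that of all genes. Kpnb1 had a ratio of 1.25, Xpo1 1.22, Cse1l 1.11, Ipo7 1.07 and Tnpo1 0.75.

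**Figure D2:**
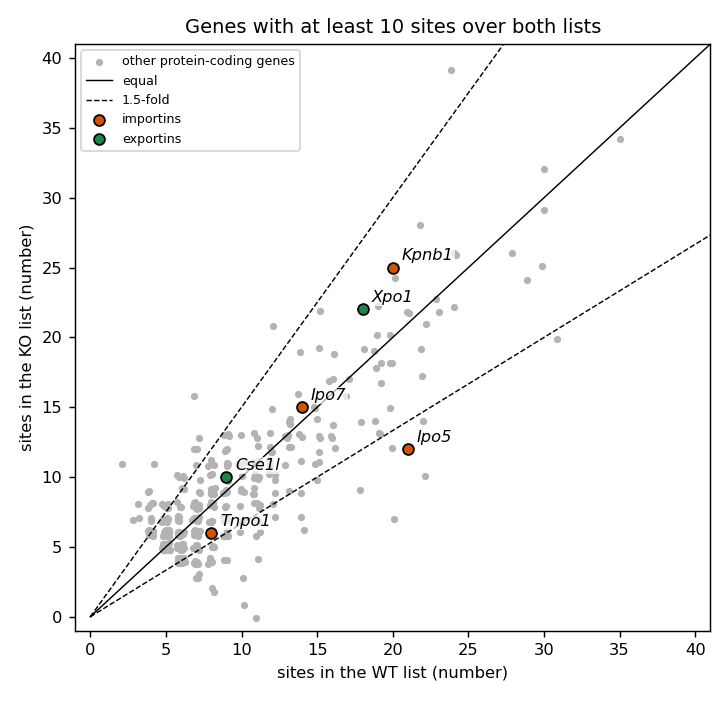
Sites in the KO list (vertical axis) against sites in the WT list (horizontal axis) for the 386 protein-coding genes whose KO and WT sites came to at least 10, with importins in orange, exportins in green and other genes in grey, the grey points being spread by up to 0.25 sites so that they do not hide each other. Ipo5 lies below the lower dashed line of 1.5-fold, and the other 5 genes lie between the dashed lines.

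By site number the KO order was Kpnb1, Xpo1, Ipo7, Ipo5, Cse1l, Tnpo1 and Kpna2, and the WT order was Ipo5, Kpnb1, Xpo1, Ipo7, Cse1l, Tnpo1 and Kpna2. Counting intervals of neighbours overlapped throughout both orders. In the KO list the interval of Kpnb1 (16.2 to 36.9 sites) did not reach that of Tnpo1 (2.20 to 13.1 sites). Few protein-coding genes held more sites than the leading members: 10 had at least as many KO sites as Kpnb1, itself included, and 22 had at least as many WT sites as Ipo5, itself included. The median gene with a site had 1.

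Kpna2 encodes an importin alpha, the adaptor that recognises the classical nuclear localisation signal and hands cargo to importin beta. Its bounds (chromosome 11, 106988629 to 106999525, GRCm38.p6, minus strand) span 10.9 kb, the shortest of the 7 genes. No site lay there on either strand. Counted on the gene's own strand alone, 81.1% of 21900 protein-coding genes held no site. A list of called sites does not show that a gene without one is unbound. Other importin alpha genes, named for comparison after their values were seen, held few sites: Kpna1 had 1 KO and 1 WT site, Kpna3 2 and 1, Kpna4 2 and 2, Kpna6 2 and 1, and Kpna7 0 and 0.

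Most sites were found at the same places in both genotypes. On the 7 genes, 77.8% of KO sites (67.8 to 85.9) overlapped a WT site by at least 1 nt, and 80.0% of WT sites (70.2 to 87.7) overlapped a KO site. Over all sites in protein-coding genes the values were 71.3% and 73.6%, inside those intervals. Merging sites that touched gave 108 places, 70 of them common to both lists, 20 found in the KO list alone and 18 in the WT list alone. In 4 of the 6 genes, every site of the shorter list overlapped the longer one, a nesting seen in 35.2% of 327 protein-coding genes with at least 5 sites in each list. All 20 WT sites of Kpnb1 overlapped KO sites, and 7 KO sites were extra. All 12 KO sites of Ipo5 overlapped WT sites, and 9 WT sites were extra. Tnpo1 had all 6 KO sites within its WT set, with 2 WT sites extra. Cse1l had all 9 WT sites within its KO set, with 1 KO site extra. Xpo1 and Ipo7 had extra sites on both sides, 8 KO and 4 WT in Xpo1 and 4 KO and 3 WT in Ipo7.

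The extra sites mostly had low scores, as did unshared sites elsewhere. Their median score was 13 in the KO list and 15.5 in the WT list, where unshared sites of all protein-coding genes had 14 and 15 and shared ones 21.4 and 23. Of the 20 KO sites without overlap, 18 scored below the KO list's median, and 6 of them had the lowest score of that list, 12, which the WT list does not contain. Of the 18 WT sites without overlap, 14 scored below the WT list's median. The 8 extra KO sites of Xpo1 scored from 12 to 15, and the 7 of Kpnb1 from 12 to 21. The 9 extra WT sites of Ipo5 reached higher, from 13 to 30, and 4 of them were at or above the list's median.

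Each of the 6 bound genes had its highest score at the same place in both lists, which held for 70.3% of the 327 genes with at least 5 sites in each list. Ipo5 had the highest of them, a 100-nt site at 120935151 to 120935250 on chromosome 14 with a score of 342 in the KO list and 521 in the WT list. That site scored above 99.0% of KO sites and 99.3% of WT sites. For the summed score of a gene, each score was multiplied by the site's width in units of 50 nt. That site made up 74.3% of the sum for Ipo5 in the KO list and 59.1% in the WT list. No other of these genes had so much of its score in 1 place.

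Xpo1 had its highest site at 23289801 to 23289950 on chromosome 11 in the KO list, with a score of 136, and at 23289751 to 23289950 in the WT list, with a score of 111. Kpnb1 had its own at 97178851 to 97178950 on chromosome 11, with scores of 106 in the KO list and 94.5 in the WT list. In Kpnb1 the score was spread more evenly, the highest site making up 21.0% of the width-weighted sum in the KO list and 21.2% in the WT list. Tnpo1 had 93 and 72 at 98842251 to 98842300 on chromosome 13 in the KO and WT lists. Cse1l had 87 and 64 at 166932151 to 166932200 on chromosome 2 in the KO and WT lists. These places all lay in the upper 10% of scores of both lists, as the percent of sites with a lower score ran from 90.8 to 96.9.

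Ipo7 stood lower. Its highest site, at 110023201 to 110023300 on chromosome 7 in the KO list (score 34.5) and at 110023201 to 110023250 in the WT list (score 40), lay over Gm25636, a snoRNA gene inside the Ipo7 bounds. Another KO site of score 14, at 110046351 to 110046450, lay over the snoRNA gene Snora23. Reads from a snoRNA and from its host gene cannot be told apart in these lists. Without the sites over snoRNA genes, Ipo7 had 13 KO and 13 WT sites, none scoring above 22 in the KO list or 24 in the WT list.

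**Figure D3:**
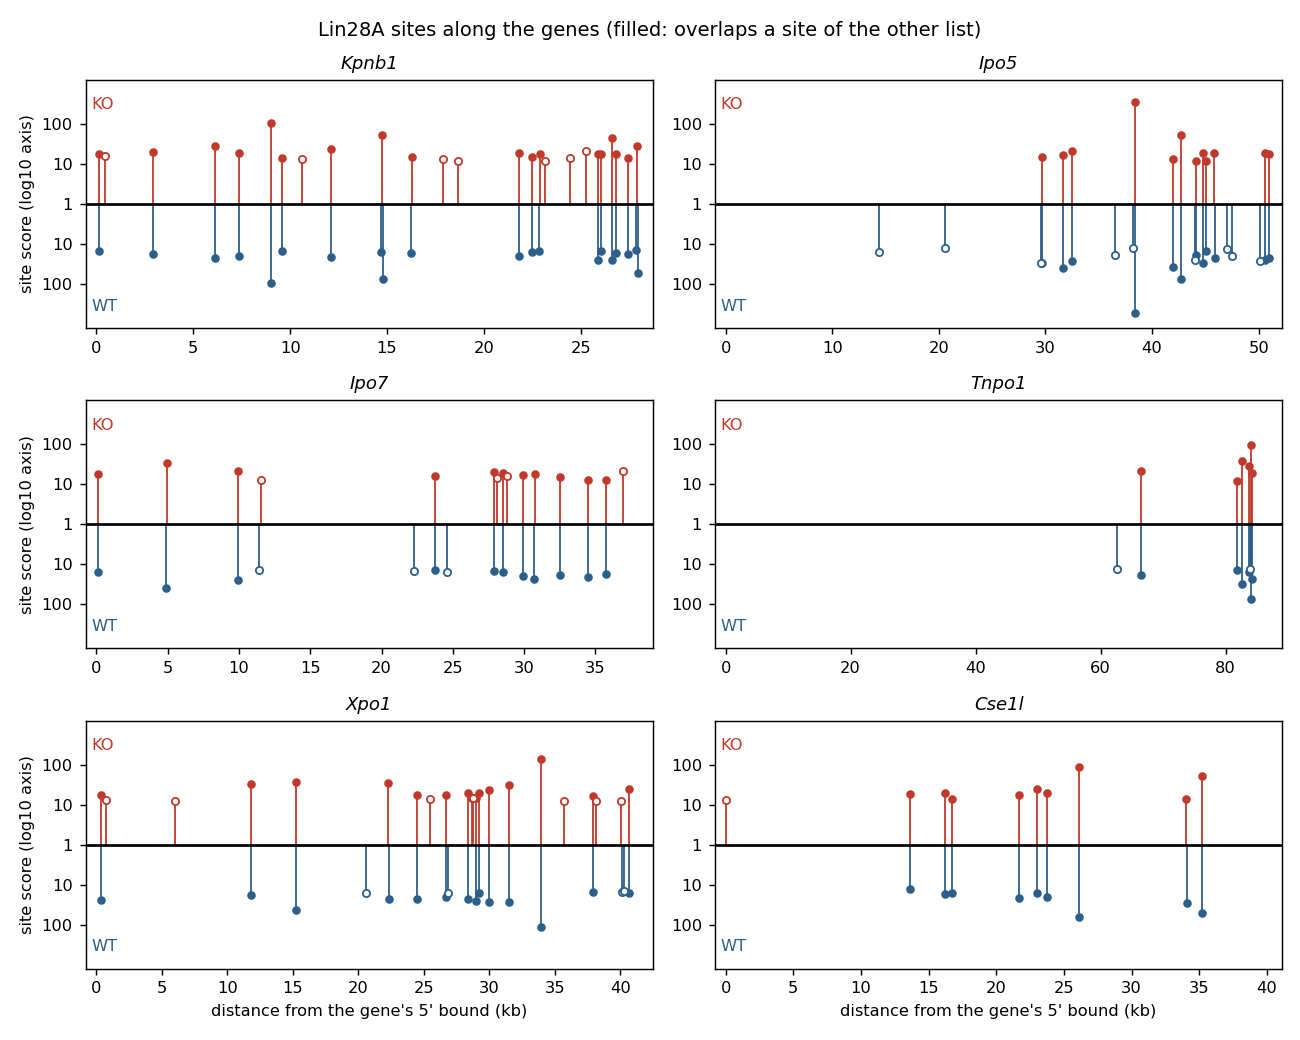
Lin28A sites along the 6 genes that held any, with distance from the gene's 5′ bound in kb on the horizontal axis and site score on a log10 axis, KO sites upward in red and WT sites downward in blue, filled where the site overlaps one of the other list. The tallest line of each gene stands at the same place in both lists, and all Tnpo1 sites lie beyond 62 kb of its 87.4 kb.

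Sites leaned toward the 3′ part of the genes. The median site lay 73.1% of the way along the gene in the KO list and 73.6% in the WT list, against 71.8% and 71.5% over the 386 genes with at least 10 sites. Tnpo1 had the most one-sided distribution, with all 6 KO sites and 7 of 8 WT sites in the last 25% of its 87.4 kb. Ipo5 had 8 of 12 KO sites and 12 of 21 WT sites there and none in the first 25%. Its bounds begin upstream of the annotated starts used below. Kpnb1 was covered nearly from end to end, its KO and WT sites both beginning 0.41% along the gene and reaching 99.1% and 99.2%. The table of gene bounds gives no exons, so whether a site was exonic, intronic or in an untranslated region was not analysed here.

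Near the start of transcription, 5 of the 6 bound genes had a site that began within 500 nt downstream of an annotated start in at least 1 list, a distance chosen after the sites were seen. This was the case for 55.2% of the 386 genes with at least 10 sites. For Cse1l and other genes without a listed start, the 5′ gene bound was used as the start. In Kpnb1 the site at 97187751 to 97187800 began 92 nt into the gene, with scores of 18 in the KO list and 15 in the WT list. In Ipo7 the site at 110018401 to 110018450 began 86 nt from its start, with scores of 18 in the KO list and 16 in the WT list. Xpo1 had its first KO site 110 nt and its first WT site 160 nt from the start, with scores of 17 and 24.5. These 3 genes had a start site in both genotypes. Cse1l had one in the KO list alone, 10 nt from its 5′ gene bound with a score of 13. The opposite-strand lncRNA gene Gm31204 overlaps Cse1l over that stretch. Ipo5 had one in the WT list alone, 57 nt from an annotated start with a score of 16. That start, at 120911194, lies inside the gene's bounds, which begin at 120896840. The site stood 28.2% of the way along the bounds.

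The sequence around these starts is shown for Kpnb1, Ipo5, Ipo7 and Xpo1, the genes with both a site near the start in at least 1 list and a window, which runs from 250 nt before the start to 50 nt after it (RefSeq, GRCm38.p6). The Ipo5 site is in the WT list alone. Capitals mark CCAAT, a common promoter box. The windows are chr11:97187843-97188142 on the minus strand for Kpnb1, chr14:120910944-120911243 on the plus strand for Ipo5, chr7:110018065-110018364 on the plus strand for Ipo7 and chr11:23255791-23256090 on the plus strand for Xpo1.
Kpnb1: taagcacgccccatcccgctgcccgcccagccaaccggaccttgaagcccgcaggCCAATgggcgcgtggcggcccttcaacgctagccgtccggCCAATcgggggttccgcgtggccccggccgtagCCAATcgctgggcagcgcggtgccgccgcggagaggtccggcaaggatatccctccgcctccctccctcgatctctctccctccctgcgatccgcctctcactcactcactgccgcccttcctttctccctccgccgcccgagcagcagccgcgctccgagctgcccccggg
Ipo5: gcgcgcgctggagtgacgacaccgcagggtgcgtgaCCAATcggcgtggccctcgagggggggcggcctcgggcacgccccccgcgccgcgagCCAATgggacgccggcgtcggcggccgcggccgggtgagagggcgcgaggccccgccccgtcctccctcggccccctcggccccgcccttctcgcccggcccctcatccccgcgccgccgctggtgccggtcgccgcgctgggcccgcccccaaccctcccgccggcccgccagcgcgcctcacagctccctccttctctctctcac
Ipo7: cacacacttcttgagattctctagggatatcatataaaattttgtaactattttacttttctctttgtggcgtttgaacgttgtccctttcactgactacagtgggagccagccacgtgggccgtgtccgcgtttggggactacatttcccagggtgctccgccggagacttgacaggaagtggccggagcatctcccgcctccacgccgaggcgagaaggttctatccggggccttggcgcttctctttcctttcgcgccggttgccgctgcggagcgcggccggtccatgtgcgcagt
Xpo1: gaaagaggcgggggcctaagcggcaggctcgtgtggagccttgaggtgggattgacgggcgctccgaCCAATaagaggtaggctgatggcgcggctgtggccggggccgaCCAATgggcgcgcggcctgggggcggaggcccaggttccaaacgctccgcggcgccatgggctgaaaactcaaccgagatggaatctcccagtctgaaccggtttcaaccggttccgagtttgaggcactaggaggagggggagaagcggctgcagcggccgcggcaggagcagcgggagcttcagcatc
CCAAT occurred 3 times in the Kpnb1 window, 2 times in each of the Ipo5 and Xpo1 windows and 0 times in the Ipo7 window. Both strands were searched, for CCAAT and its reverse complement ATTGG, after the sequences were seen. Of the 7 genes, 6 had an entry, with 8 windows in all. Kpna2, the gene with no site, had 2 matches, and Tnpo1 had 1 in the window of its first start. At least 1 match was present in 38.2% of 21263 windows of protein-coding genes. The G and C content was 72.0% for Kpnb1, 80.7% for Ipo5, 56.3% for Ipo7 and 66.3% for Xpo1, where the median window had 56.3%. None of the Lin28A sites lay inside a printed window, so these letters describe the promoters and not the bound RNA.

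The importins were compared with the exportins by site density per kb of gene bounds, introns included. The 5 importin genes together had 0.269 sites per kb in the KO list, against 0.390 for the 2 exportin genes. In the WT list the importins had 0.292 and the exportins 0.329 sites per kb. Between genes the spread was wider than this difference. In the KO list importin genes ran from 0 (Kpna2) to 0.887 (Kpnb1), with Cse1l at 0.248 and Xpo1 at 0.528 inside that range. In the WT list importin genes ran from 0 to 0.710, with Cse1l at 0.223 and Xpo1 at 0.432 inside it. Tnpo1, the longest gene, was the least dense of those with sites, at 0.0687 in the KO list and 0.0916 in the WT list. The lower importin density depended on Tnpo1: without it, the remaining importins together were denser than the exportins in both lists. Among the 386 genes with at least 10 sites, 78 were denser than Kpnb1 in the KO list and 90 in the WT list.

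**Figure D4:**
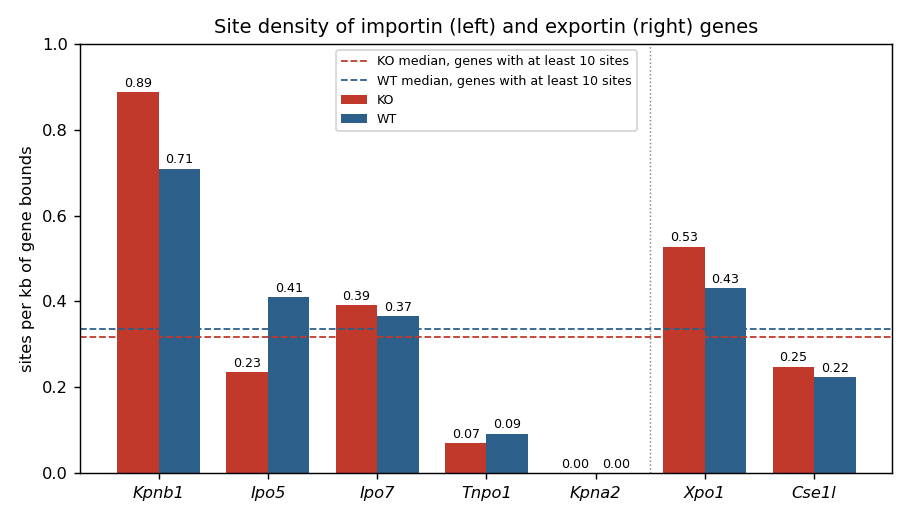
Lin28A sites per kb of gene bounds for each importin (left of the dotted line) and exportin (right), in the KO list (red, left bar) and the WT list (blue, right bar), with dashed lines at the median of the 386 genes with at least 10 sites (0.316 in the KO list, 0.335 in the WT list). Both exportins fall within the range of the importins, which runs from 0 for Kpna2 to 0.887 for Kpnb1.

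The KO share of sites was 47.9% (38.8 to 57.2) for the importins, with 58 KO and 63 WT sites, and 54.2% (40.8 to 67.3) for the exportins, with 32 KO and 27 WT sites. The intervals overlapped. Without Ipo5, the importins had 46 KO and 42 WT sites, a KO share of 52.3% (41.4 to 63.0). Of the importins' KO sites 81.0% (68.6 to 90.1) overlapped a WT site, against 71.9% (53.3 to 86.3) of the exportins' KO sites. In the WT list, overlap with the KO list was 77.8% (65.5 to 87.3) for importin sites and 85.2% (66.3 to 95.8) for exportin sites. The intervals of importins and exportins overlapped in both lists.

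Median scores lay close together within a list. The median score was 18.0 for importin sites and 17.2 for exportin sites in the KO list, and 19.5 and 20.0 in the WT list. The last 25% of the gene length held 56.9% of importin and 28.1% of exportin sites in the KO list, and 54.0% and 29.6% in the WT list. Over the 386 genes with at least 10 sites these values were 46.1% in the KO list and 45.7% in the WT list. By gene, it held 12 of 25 KO sites in Kpnb1 and 7 of 15 in Ipo7, against 7 of 22 in Xpo1 and 2 of 10 in Cse1l. In the WT list it held 10 of 20 in Kpnb1 and 5 of 14 in Ipo7, against 6 of 18 in Xpo1 and 2 of 9 in Cse1l, so Ipo7 and Xpo1 were nearly equal there. With 5 and 2 genes, each of its own length and exon layout, this is a description of these genes.

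Of 62 other genes of nuclear transport, 44 held a site, with 130 KO and 111 WT sites in all, where 18.9% of all protein-coding genes held one. The list was Ipo and Xpo relatives, the Ran cycle, nucleoporins and mRNA export factors. It was not matched to all protein-coding genes for RNA level, which was not measured here. Other importins and adaptors held sites in 9 of 13 genes, with 23 KO and 15 WT sites, and other exportins in 5 of 5, with 14 KO and 16 WT sites. The Ran cycle had 28 KO and 29 WT sites over 5 of 7 genes, nucleoporins 52 and 40 over 21 of 27, and mRNA export 13 and 11 over 4 of 10.

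The highest counts in this list were below those of Kpnb1, Ipo5, Ipo7 and Xpo1. Ran itself, the GTPase that gives transport its direction, had 7 KO and 7 WT sites. Ranbp2, a Ran-binding nucleoporin of the cytoplasmic filaments, had 7 and 7, and Ranbp1, which helps Ran hydrolyse GTP, had 7 KO and 6 WT sites. Tpr, a nucleoporin of the nuclear basket, had 8 KO and 4 WT sites. Ddx39b, an RNA helicase of mRNA export, had 6 and 6. Of the 7 genes here with at least 10 sites, Tpr was the 1 past the 1.5-fold mark on the side higher in KO. Xpo4, an exportin with 4 KO and 7 WT sites, was the 1 past it on the side lower in KO. The other 5 lay between. With 11.1% of the 386 genes past the mark on the higher side and 15.8% on the lower, 1 of 7 each way is near the share over all genes.

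The genes nearest to each member in both site counts were sought among protein-coding genes outside these lists. With only 2 lists to compare, the likeness is that of a pair of numbers. Kpnb1 was nearest to Huwe1, a ubiquitin ligase with 24 KO and 20 WT sites. Ipo5 was nearest to Usp7, a deubiquitinase with 12 KO and 20 WT sites. Xpo1 was nearest to Ncl, which encodes nucleolin, with 22 KO and 19 WT sites. Ipo7 had the same counts as Cnot1, the scaffold of the CCR4-NOT deadenylase. Tnpo1 had those of Slc7a5, an amino acid transporter, and Cse1l those of Ppp1ca, a phosphatase catalytic subunit. The genes differ in length, Kpnb1 spanning 28.2 kb and Huwe1 134.6 kb.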

How the data were processed

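Lin28A irCLIP site lists from 1 Mettl3 KO and 1 Mettl3 WT sample were used. In each list, as deposited, a site has a strand, a score, a p-value and bounds on a 50-nt grid. The authors' p-values were 1.1e-05 or lower. The authors' scores have no stated normalisation. Per the submitters' processing notes, Bowtie2 and UMI-tools are among the tools and hg38 and mm10 among the builds, with no versions or roles. No source used here names the site caller, its control, its threshold or any pooling of replicates. A threshold set in each list by itself can add or remove weak sites, so counts near the lowest score depend on it.

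Gene bounds were those of RefSeq for GRCm38.p6, which underlies mm10, and coordinates count from 1. The strand came from RefSeq promoter windows. All 19 sites of Cse1l lay on the plus strand, which was taken as its strand, and other genes without a listed strand were treated in the same way. A site over several genes counted for each. Sites were called shared when they overlapped by at least 1 nt on the same strand. Python 3.11.15, pandas 2.3.3 and scipy 1.17.1 were used, and the counting was tested on simulated lists with known answers. The members, the lists and the measures were chosen with earlier results of these data known. All 7 members are named. Of the 62 transport genes the text names the 5 with the most sites and those past the 1.5-fold mark, and for each member with at least 10 sites it names the gene nearest in site counts.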

Additional observations from a re-analysis of the deposited data

How the results depend on the processing

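No paired analysis was possible because each genotype had 1 sample, so no sample could be left out either. Counting sites on either strand or only sites wholly inside the bounds left all counts as they were. The KO to WT ratio over the 7 genes was 1.00 as reported and lay between 0.867 (scores at or above each list's median) and 1.15 (at or above the upper quartile). With a minimum score of 13 in both lists it was 0.90, and without Ipo5 it was 1.13. Both were chosen after seeing the data. Ipo5 stayed lower in KO under every setting run, between 0.429 (6 KO and 14 WT sites at or above the median) and 0.571. Tnpo1 turned, with 5 KO and 3 WT sites at or above the median score, and Xpo1 had 9 and 10 there and 18 and 18 with the common minimum score of 13. Xpo1 moved to 2.5 at the upper quartile, on 5 KO and 2 WT sites. Sites at or above the median score were shared more often, 94.9% in the KO list and 91.1% in the WT list. The median of each gene's highest score, another quantity by construction, was 99.5 for importins and 112 for exportins in the KO list, and 83.2 and 87.4 in the WT list. Importins stayed below exportins in density in both lists under every alternative run. The density ratios ran from 0.611 to 0.716 in the KO list and from 0.760 to 0.872 in the WT list. Counted as sites per gene, the ratios were 0.725 and 0.933. The only gene left out in these settings was Ipo5. Tnpo1 held 6 KO and 8 WT sites over 87.4 of the importins' 215.9 kb. Without Tnpo1 the order did not hold, as the counts and lengths of the remaining importins gave a higher density than the exportins in both lists.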

Other observations

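The spacing of neighbouring sites differed between these genes. Over the 386 genes with at least 10 sites, 57.0% of gaps in the KO list and 56.6% in the WT list were at most 1000 nt. In Kpnb1, 14 of the 24 gaps between neighbouring KO sites and 10 of the 19 between WT sites were that short, and the median gap was 725 nt in the KO list and 600 nt in the WT list. Ipo5 had a median gap of 750 nt in each list, with 6 of 11 KO gaps and 11 of 20 WT gaps at most 1000 nt. Tnpo1 had 3 of 5 and 4 of 7 such gaps in the KO and WT lists, Ipo7 4 of 14 and 3 of 13, Xpo1 9 of 21 and 6 of 17, and Cse1l 2 of 9 and 2 of 8. Xpo1 had median gaps of 1450 nt in the KO list and 1650 nt in the WT list, and Cse1l had 2300 nt and 1750 nt. Ipo7 had 1350 nt and 1400 nt, and Tnpo1 had 700 nt in each list. Over the genes with at least 10 sites, the median of the genes' median gaps was 987.5 nt in each list. Counted as covered sequence, Kpnb1 had 1750 nt in the KO list and 1600 nt in the WT list, Xpo1 1600 nt and 1400 nt, and Ipo5 700 nt and 1450 nt.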
